A study of Mus musculus with 3 samples.

Results

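The libraries described here came from mouse embryonic fibroblasts (MEFs) in which the gene Eny2 was targeted by siRNA (siEny2) before reprogramming. The siEny2 group was taken from the column names of the deposited count table. It held 3 libraries, 1 in each of the 3 sequenced pools of the series, of 127 libraries with at least 10000 counts. They were compared with 3 libraries of a non-targeting siRNA (nt control) and with 5 libraries labelled Mock, a mock transfection control. The 95 libraries of the other 32 gene-targeting siRNAs gave a further reference, and the 21 libraries of a time course from day 0 to day 6 were used to place the genes.

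Apart from the transfected siRNA, the siRNA and Mock groups shared their treatment. All cells were MEFs of BL6 background at passage 2. They carried a doxycycline-inducible lentiviral cassette of Oct4, Sox2, Klf4 and c-Myc (OSKM) together with the rtTA activator. The siRNA groups were transfected with pooled siRNAs at 40 nM. Cells were replated after 24 h, and RNA was taken on reprogramming day 6. The reprogramming medium held doxycycline, the GSK3 inhibitor chiron, the TGF-β inhibitor Alk5i, ascorbic acid and LIF. Cells of the time course were replated without transfection. The cassette is delivered by infection, so a culture holds cells with different integrations, and cells that reprogram are mixed with cells that do not. Libraries were assigned to conditions by the names of their columns, since the 3 samples of the series are 3 sequenced pools (replicates 1 to 3). The study describes replicate transfections and independent sequencing replicates, and the labels do not say whether these began from separate MEF preparations, so every p-value below measures the spread between these libraries. In bulk libraries of this kind, fewer cells of a type and less RNA per cell cannot be told apart.

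ENY2 is a small protein shared by a pair of nuclear machines. In the SAGA coactivator it belongs to the deubiquitinase module, which removes ubiquitin from histone H2B. In the TREX-2 complex, which is built on the GANP scaffold at the nuclear pore, it takes part in the export of mRNA. Through these roles it links transcription with export, and both are used by most active genes.

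The siRNA library listed 2 reagents for this gene, under its older symbol 1810057B09Rik. The study pooled a larger set for each target, and any further reagent is not analysed here. The sense and antisense strands are shown because they define what was targeted, with the seed of each antisense strand (bases 2 to 8) in capitals.
siRNA 96034 sense: gggaacaaauucauuguautt
siRNA 96034 antisense: aUACAAUGaauuuguuccctc
siRNA 171315 sense: gcuccuacagagaauaagatt
siRNA 171315 antisense: uCUUAUUCucuguaggagctc
Eny2 (ENSMUSG00000022338) lies on the plus strand of chromosome 15, at chr15:44428042-44438256 (GRCm38, GENCODE vM21). The target of siRNA 96034 was found at chr15:44437414-44437432, in the 3′ UTR part of exon 5 of 5 of the 3000-base Eny2 transcript. The target of siRNA 171315 was found at chr15:44435640-44435658, in the coding part of the same exon. Neither 19-base target had a full match in the transcripts of any other gene of that annotation.

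The Eny2 transcript itself was counted first, as a check of the label. Its counts in siEny2 were 4 in replicate 1, 10 in replicate 2 and 21 in replicate 3. In the nt control they were 13, 7 and 12. The Mock libraries gave 10 and 7 in replicate 1, 5 and 8 in replicate 2, and 10 in replicate 3. Scaled for depth, siEny2 was at 62.5, 150 and 155 CPM, the counts scaled by edgeR to a common library total, and the nt control at 216, 105 and 98 CPM. The groups overlapped, with siEny2 the lower of the pair in replicate 1 and the higher of the pair in replicates 2 and 3.

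The fitted difference of Eny2 was −0.01 on the log2 scale against the nt control (SE 0.43, adjusted p = 0.996 by edgeR's quasi-likelihood test). It was −0.58 against Mock (SE 0.39, adjusted p = 0.487) and −0.27 against the other siRNAs (SE 0.29, adjusted p = 0.719). The 35 Eny2 counts of the siEny2 libraries were 1.09 times those expected from the nt control of the same pool (exact Poisson 95% interval 0.759 to 1.52). Against the 103 other transfected libraries the ratio was 0.877 (0.611 to 1.22). These intervals cover counting error of the siEny2 libraries only. Without replicate 1 the ratio to the nt control was 1.61 (1.09 to 2.28), and without replicate 3 it was 0.716 (0.392 to 1.20), so single libraries moved it to either side of 1. Against Mock it was 0.812 (0.566 to 1.13), and without replicate 3 it was 0.559 (0.306 to 0.938). With all replicates, a lower level of the transcript on day 6 was therefore not detected. The intervals hold ratios below 1, so at this depth they do not decide on a partial fall. Protein and RNA of earlier days were not measured. Since no lower level of the target was detected, the group is called by its label, and the differences below are those of the libraries labelled siEny2. Eny2 is overlapped on the opposite strand by Nudcd1, and the strand setting of the counting was not given in the sources used here.

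The libraries were shallow. The siEny2 libraries held 74126, 76916 and 149964 counts, and the nt control libraries 75100, 80136 and 143156. The 5 Mock libraries held 38925 to 83089 counts. At an equal depth of 25000 counts, siEny2 libraries showed 5533 to 5755 genes, the nt control 5037 to 5272 and Mock 4885 to 5284, so siEny2 did not overlap with either control. Its mean of 5651 genes ranked 8 of 42 conditions. No pair of replicates differed by as little as sampling noise alone, the chi-square divided by the number of genes lying between 1.35 and 2.48.

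Few genes passed the test. Of 3013 genes tested, 57 differed between siEny2 and the nt control at an adjusted p under 0.05, which is 1.89%. Of these, 23 were higher (0.763%) and 34 lower (1.13%). A fit that did not treat the pool as a block called 14 genes, 13 higher and 1 lower, so most of the calls rest on comparing libraries within a pool. With another scaling of library size (RLE) 58 genes passed, 32 higher and 26 lower, and with DESeq2 59 passed, 30 higher and 29 lower. The split between higher and lower genes thus depended on the scaling. Leaving out 1 replicate lowered the count to 30, 20 and 27 genes without replicates 1, 2 and 3. Of the 39 named genes called in this comparison, 9 kept their call whichever replicate was left out, namely Gm21738, Gm10721, Gm11168, Gm10717, Gm10801, Gm10800, Gm10718, Gm26384 and Gm6204, and the other 30 lost it without at least 1 replicate. The median log2 difference of all genes tested was 0.00, with quartiles of −0.32 and 0.36.

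**Figure D1:**
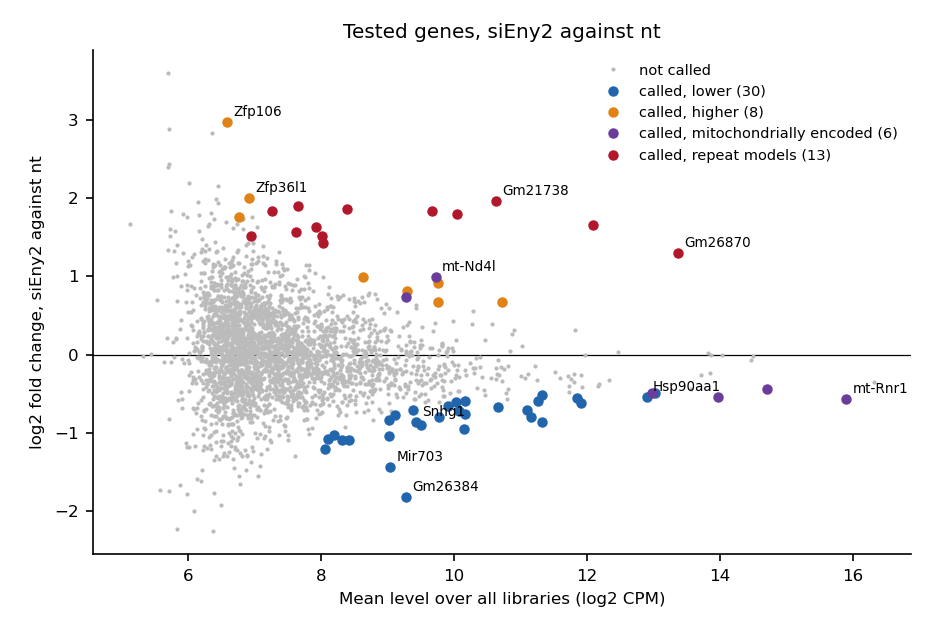
Log2 fold change of siEny2 against the nt control for the 3013 genes tested, over their mean level in log2 CPM, with 1 point a gene and called genes in colour. The 13 repeat models lie together above 1, and Gm26384, a called lower gene, lies at −1.82.

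Against Mock, 126 genes differed (4.18%), of which 32 were higher (1.06%) and 94 lower (3.12%). Against the other siRNAs 128 genes differed (4.25%), of which 72 were higher (2.39%) and 56 lower (1.86%). The 3 comparisons share the siEny2 libraries, so their values are given side by side and not as independent counts.

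The largest group among the higher genes was a set of repeat-derived gene models. Gm21738, a short predicted gene on chromosome 14, had a transcript of 681 bases whose sequence matched itself best when shifted by 234 bases, where 62.4% of bases were identical against a median of 30.9% at other shifts. A tandem unit of that length is known from the mouse major satellite, the repeat array of pericentromeric heterochromatin, which is normally kept compacted. No satellite consensus was used here. The first unit of Gm21738, on the minus strand within chr14:19415857-19418930 (GRCm38), is shown as an example of the repeat by which the group was defined.
Gm21738 repeat unit: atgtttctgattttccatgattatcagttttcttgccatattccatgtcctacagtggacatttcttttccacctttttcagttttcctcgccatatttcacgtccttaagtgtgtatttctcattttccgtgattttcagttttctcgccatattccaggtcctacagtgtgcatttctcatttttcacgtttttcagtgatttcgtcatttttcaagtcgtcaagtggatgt
The whole 681-base Gm21738 transcript was used for the search. Transcripts of 13 gene models in the count table were covered by it over at least 50% of their length at 80% identity or more, and in fact over at least 99.6%. They were Gm10801 and Gm10800 on chromosome 2, Gm21738 on chromosome 14, and 10 models packed into chr9:3000282-3038316. In that block Gm26870, annotated as a lincRNA, runs antisense to the other 9. The set was put together after its values had been seen. Apart from Gm26870, its members are near copies at their transcript ends, so reads can be split among them and the members are not independent genes. Gm26870 had no such copy, and it held 1609 of 3205, 1484 of 3062 and 2367 of 5282 repeat counts in the siEny2 libraries. Its reads cannot be told apart from those of the 9 models on the opposite strand, since the strand setting of the counting is not known.

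All 13 models were tested and all 13 were called higher in siEny2 than in the nt control. The 0.763% of all genes that were higher includes them. As a set chosen after its values were seen, with shared reads, they are not 13 separate results. Summed over the models, the repeat took 4.32%, 3.98% and 3.52% of all counts in the siEny2 libraries. In the nt control it took 1.41%, 1.11% and 1.40%. The Mock libraries gave 1.57% and 2.70% in replicate 1, 1.86% and 1.88% in replicate 2, and 2.30% in replicate 3. The siEny2 libraries lay above every kept library of both controls, a Mock library of 6403 counts having been left out. Within the pools the share was 3.07, 3.60 and 2.51 times that of the nt control and 2.02, 2.13 and 1.53 times the mean of Mock.

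The siEny2 mean of 3.94% ± 0.402 (SD, n = 3) was the first of 42 conditions. The nt control was at 1.31% ± 0.173 (n = 3) and Mock at 2.06% ± 0.441 (n = 5). The next conditions were siPrkdc with 2.97% ± 0.339 and siHdac1 with 2.61% ± 0.132, both of 3 libraries. The highest of all other libraries, a siPrkdc library, was at 3.27%, below the lowest siEny2 library. In CPM that siPrkdc library, at 42000, lay above the lowest siEny2 library, at 38900. In the time course the share was 1.69% on day 0 and 0.992% on day 6.

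**Figure D2:**
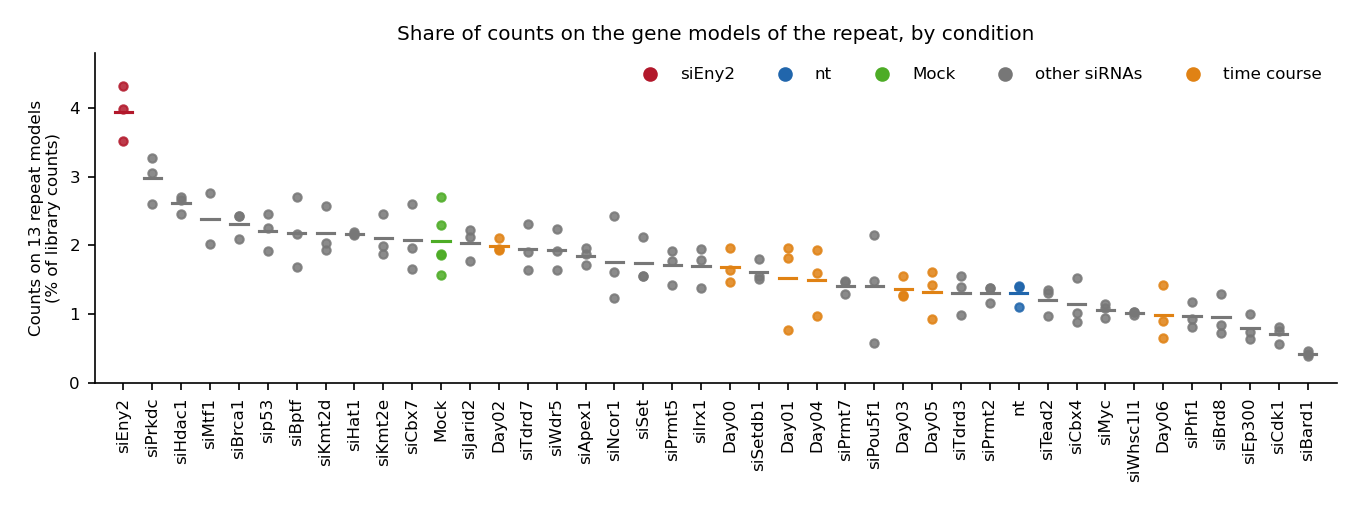
Share of all counts, in percent of each library, that fell on the 13 repeat models, with 1 point a library and a line at the mean of each of 42 conditions, ordered by the mean. The 3 siEny2 libraries, at 3.52% to 4.32%, lie above all others, and the nt control lies at 1.11% to 1.41%.

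Gm21738 was the model with the largest difference from the nt control, while Gm10800 differed most from Mock (0.89 on the log2 scale) and Gm10720 most from the other siRNAs (1.60). It was at 4100, 4140 and 3800 CPM in siEny2 and at 1130, 733 and 1190 CPM in the nt control, and the Mock libraries lay between 2060 and 3540 CPM. The groups did not overlap. The log2 difference was 1.96 against the nt control (SE 0.20, adjusted p = 1.67e-16), 0.65 against Mock (SE 0.17, adjusted p = 0.00537) and 1.49 against the other siRNAs (SE 0.12, adjusted p = 2.66e-26). Gm10800 was at 12300, 10800 and 9600 CPM in siEny2 against 3610, 2950 and 3820 CPM in the nt control, a log2 difference of 1.66 (SE 0.18, adjusted p = 1.16e-13). Gm26870, the antisense model, had the smallest difference of the set at 1.29 (SE 0.19, adjusted p = 1.51e-08), from 25200, 22200 and 17400 CPM in siEny2 and 10400, 7750 and 8370 CPM in the nt control.

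The other models moved over a narrow range. The median log2 difference of the 13 was 1.66 against the nt control and 1.47 against the other siRNAs, where all 13 also passed. Against Mock the median was 0.60 and 5 of 13 passed, with Gm10722 at 0.02 (adjusted p = 0.984). With a Mock library of 6403 counts kept in the fit, together with the other shallow library, none of the 13 passed against Mock and 11 were higher. Tested as 1 summed feature, the repeat was higher by 1.49 on the log2 scale against the nt control (SE 0.19, adjusted p = 2.16e-10), by 0.77 against Mock (SE 0.16, adjusted p = 0.000455) and by 1.25 against the other siRNAs (SE 0.12, adjusted p = 2.20e-19). The nt control was low among conditions for this repeat, so the size of the difference depended on the control chosen. In the fit without the pool as a block, 12 of the 14 genes called against the nt control were repeat models. The number of genes at equal depth was also higher and the mitochondrial share lower in siEny2 than in both controls, and the part of these measures in the repeat's share was not tested.

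Outside the repeat models, few genes were higher in siEny2 than in the nt control. Zfp106, a zinc finger protein that binds RNA, had 12, 6 and 19 counts in siEny2 and 1, 2 and 1 in the nt control. This is 188, 89.9 and 140 CPM against 16.7, 29.9 and 8.17 CPM, with no overlap. The log2 difference was 2.97 (SE 0.64, adjusted p = 0.00108), and the ratio of summed counts was 9.17 with an exact 95% interval of 3.29 to 35.4. The 5 Mock libraries lay higher, at 44.8 to 103 CPM, and the difference from Mock was 1.20 (adjusted p = 0.191). Against the other siRNAs it was 1.31 (SE 0.32, adjusted p = 0.0038). The call against the nt control was lost without replicate 3.

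Zfp36l1, which binds AU-rich elements and promotes decay of mRNA, had 11, 7 and 13 counts in siEny2 and 1, 3 and 3 in the nt control. The log2 difference was 2.00 (SE 0.59, adjusted p = 0.0435), and the call was kept in 1 of 10 alternatives. Its level in Mock ranged from 25.8 to 134 CPM and overlapped with siEny2, at 95.8 to 172 CPM.

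Vim, the intermediate filament protein of mesenchymal cells, was at 1270, 1110 and 708 CPM in siEny2 and at 716, 658 and 515 CPM in the nt control. The groups overlapped by a small margin, while siEny2 was higher within each pool, and the log2 difference was 0.68 (SE 0.19, adjusted p = 0.0342). Tcf4, a basic helix-loop-helix transcription factor, was at 438, 464 and 376 CPM against 133, 269 and 212 CPM, a log2 difference of 1.00 (SE 0.29, adjusted p = 0.0362). Neither passed against Mock, where Vim was at 0.56 (adjusted p = 0.063) and Tcf4 at 0.46 (adjusted p = 0.41), with a Mock library of Tcf4 at 439 CPM inside the range of siEny2. Against the other siRNAs Vim was at 0.41 (adjusted p = 0.0419) and Tcf4 at 0.24 (adjusted p = 0.568). Gm43333, a gene model of unsettled status on chromosome 5, was at 2670, 2040 and 3180 CPM in siEny2. In the nt control it was at 1830, 1170 and 2010 CPM, and in Mock it lay between 1070 and 1690 CPM. Its difference was 0.67 against the nt control (SE 0.15, adjusted p = 0.00175), 0.76 against Mock (adjusted p = 4.33e-05) and 0.76 against the other siRNAs (adjusted p = 1.67e-10). Tcf4 and Gm43333 were called but lie outside the rule for named genes and were chosen after their values were seen.

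Of the 34 lower genes, 13 were protein-coding genes of the nuclear genome. Ptgr1, a prostaglandin reductase of the oxidative stress response, was at 156, 105 and 221 CPM in siEny2 and at 300, 329 and 515 CPM in the nt control, with no overlap. It fell by 1.20 on the log2 scale (SE 0.32, adjusted p = 0.0135), and the Mock libraries, at 223 to 418 CPM, also lay above siEny2. Bnip3, a mitophagy receptor that responds to low oxygen, was at 250, 449 and 170 CPM against 616, 688 and 457 CPM and fell by 1.08 (SE 0.27, adjusted p = 0.00784).

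Chordc1, a partner of HSP90, was at 172, 180 and 177 CPM in siEny2 and at 433, 568 and 237 CPM in the nt control, a log2 difference of −1.08 (SE 0.28, adjusted p = 0.00981). Ivns1abp, an actin-binding Kelch protein, fell by 1.08 (SE 0.29, adjusted p = 0.0186). Ctsl, a lysosomal protease, fell by 1.02 (SE 0.30, adjusted p = 0.0377), and this call was kept in 2 of 13 alternatives. None of these 5 genes passed against Mock, where their log2 differences ran from −0.85 for Ptgr1 to −0.35 for Ctsl.

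Hsp90aa1, the inducible cytosolic HSP90, was at 6600, 7250 and 6970 CPM in siEny2 and at 11200, 9360 and 9740 CPM in the nt control. Mock lay at 8100 to 9510 CPM, so siEny2 was below every library of both controls. The log2 difference was −0.54 against the nt control (SE 0.13, adjusted p = 0.00551) and −0.39 against Mock (SE 0.12, adjusted p = 0.0402). Summed with its near copies Gm12346, Gm5511 and Gm5844, it was at −0.53 against the nt control (adjusted p = 0.0224) and at −0.36 against Mock, where the call was lost (adjusted p = 0.102). The call of Hsp90aa1 against the nt control was lost whichever replicate was left out, and without the block. S100a6, a calcium-binding protein of fibroblasts, fell by 0.61 against the nt control (SE 0.14, adjusted p = 0.00208). Mt2, a metallothionein, fell by 0.80 (SE 0.19, adjusted p = 0.00474). Ccng1, a target of the p53 pathway, fell by 0.61 (adjusted p = 0.0397), and Pgk1, a glycolytic enzyme, by 0.59 (adjusted p = 0.0499). The call of Ccng1 was kept in 2 of 13 alternatives and that of Pgk1 in none. None of these 4 genes passed against Mock, with S100a6 at −0.27 (adjusted p = 0.307), Mt2 at −0.22 (adjusted p = 0.653), Ccng1 at −0.25 (adjusted p = 0.524) and Pgk1 at 0.11 (adjusted p = 0.83). Against the other siRNAs S100a6 was at −0.45 (adjusted p = 0.00174) and the others did not pass, with Pgk1 at 0.18. The Mt2 libraries of siEny2, at 328, 914 and 862 CPM, overlapped with the nt control at 699, 1110 and 1810 CPM.

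Snhg1, a noncoding RNA that hosts small nucleolar RNAs in its introns, was among the genes that fell against every reference. It was at 391, 420 and 413 CPM in siEny2 and at 1020, 658 and 645 CPM in the nt control. In Mock it lay between 597 and 1600 CPM, so siEny2 did not overlap with either control. The log2 difference was −0.86 against the nt control (SE 0.22, adjusted p = 0.00916), −1.14 against Mock (SE 0.21, adjusted p = 2.64e-05) and −0.81 against the other siRNAs (SE 0.16, adjusted p = 0.000187).

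**Figure D3:**
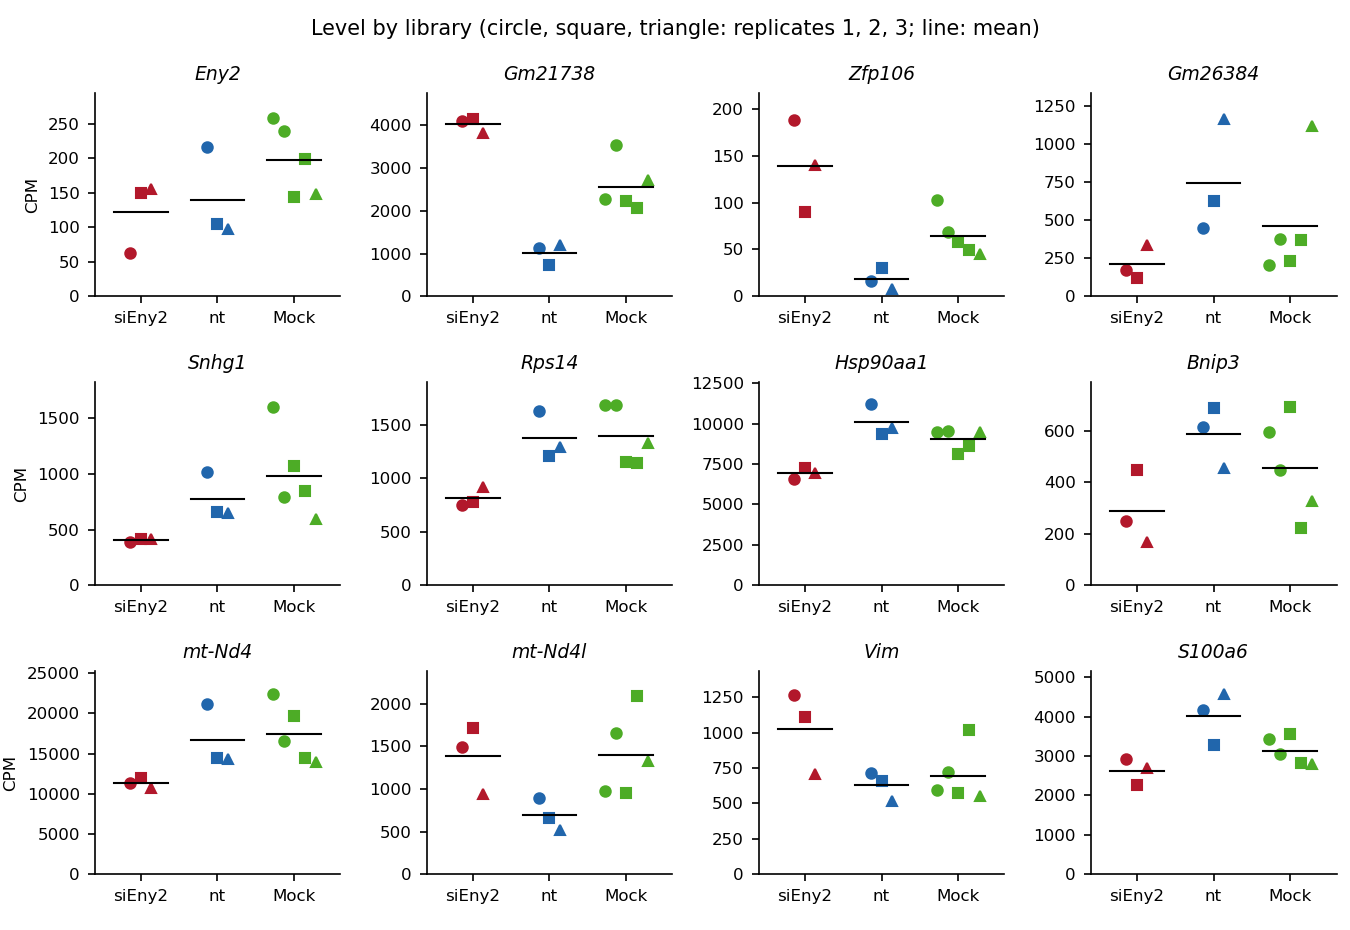
Level in CPM of 12 genes in each siEny2, nt control and Mock library, with replicates 1, 2 and 3 as circles, squares and triangles and a line at the group mean (3, 3 and 5 libraries). siEny2 stands apart from both controls for Gm21738, Snhg1, Rps14, Hsp90aa1 and mt-Nd4, and overlaps with the nt control for Eny2 and Vim.

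Most of the calls concerned genes with near copies. Of the 57 called genes 39 (68.4%) belonged to 16 families, while 706 of all 3013 genes tested (23.4%) were in a family. The 13 repeat models were taken as 1 family by their shared repeat, and members of the other families share their transcript ends, the part that CEL-Seq2 reads. Reads of such genes can be split among the copies, so a difference of 1 copy is uncertain. When the counts of each family were summed, 2495 features were left and 26 passed against the nt control, 6 higher and 20 lower.

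The lower gene models with the largest differences, Gm26384 and Mir703, are such copies. They are annotated as miRNA precursors of 110 and 109 bases on chromosomes 17 and 5, and they align with Eef1a1 transcripts, which encode a translation elongation factor, over their whole length at 98.2% identity. A run of 47 bases was the same in all 3 genes, and its last 30 bases are shown because a read from it can be assigned to any of them.
run shared by Gm26384, Mir703 and Eef1a1: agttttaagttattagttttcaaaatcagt
Gm26384 was at 172, 120 and 339 CPM in siEny2 and at 450, 628 and 1160 CPM in the nt control, a log2 difference of −1.82 (SE 0.24, adjusted p = 5.56e-10). Mir703 fell by 1.44 (SE 0.26, adjusted p = 2.16e-05). Eef1a1 itself was at 453, 509 and 435 CPM against 450, 479 and 384 CPM, a log2 difference of 0.10 (SE 0.23, adjusted p = 0.929). Summed over 5 models of this family, the difference was −0.96 (SE 0.17, adjusted p = 6.50e-05). The values say nothing of a mature miRNA.

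Copies of ribosomal protein genes were the other large share. Gm10288 and Gm10036, processed pseudogenes that match Rpl11 at 99.8% and 99.2% identity, fell by 1.04 (SE 0.23, adjusted p = 0.00175) and 0.89 (SE 0.21, adjusted p = 0.00474). Summed with Rpl11 and 4 further copies, the family was lower by 1.02 on the log2 scale (SE 0.17, adjusted p = 1.37e-05). Gm6204 and Gm5805, copies of Rps14, fell together with Rps14, and their sum was at −0.81 (SE 0.16, adjusted p = 0.000342). The copies of Npm1, which encodes a nucleolar histone chaperone, were lower too, with Gm5611 at −0.86 (SE 0.18, adjusted p = 0.00086), while Npm1 itself was at −0.37 (adjusted p = 0.172). The Npm1 family summed to −0.60 against the nt control (adjusted p = 0.0208), −0.36 against Mock (adjusted p = 0.151) and 0.07 against the other siRNAs (adjusted p = 0.851), whereas the Rpl11 and Rps14 families passed in all 3 comparisons. Gm19366, a copy of Rpl39, was the exception among the named copies, with a higher level in siEny2 by 1.76 (SE 0.48, adjusted p = 0.0195). That call was lost without replicate 2 or replicate 3. The Rpl39 family summed to 0.94 against the nt control (adjusted p = 0.0132), 0.56 against Mock (adjusted p = 0.133) and 0.88 against the other siRNAs (adjusted p = 5.26e-06).

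**Figure D4:**
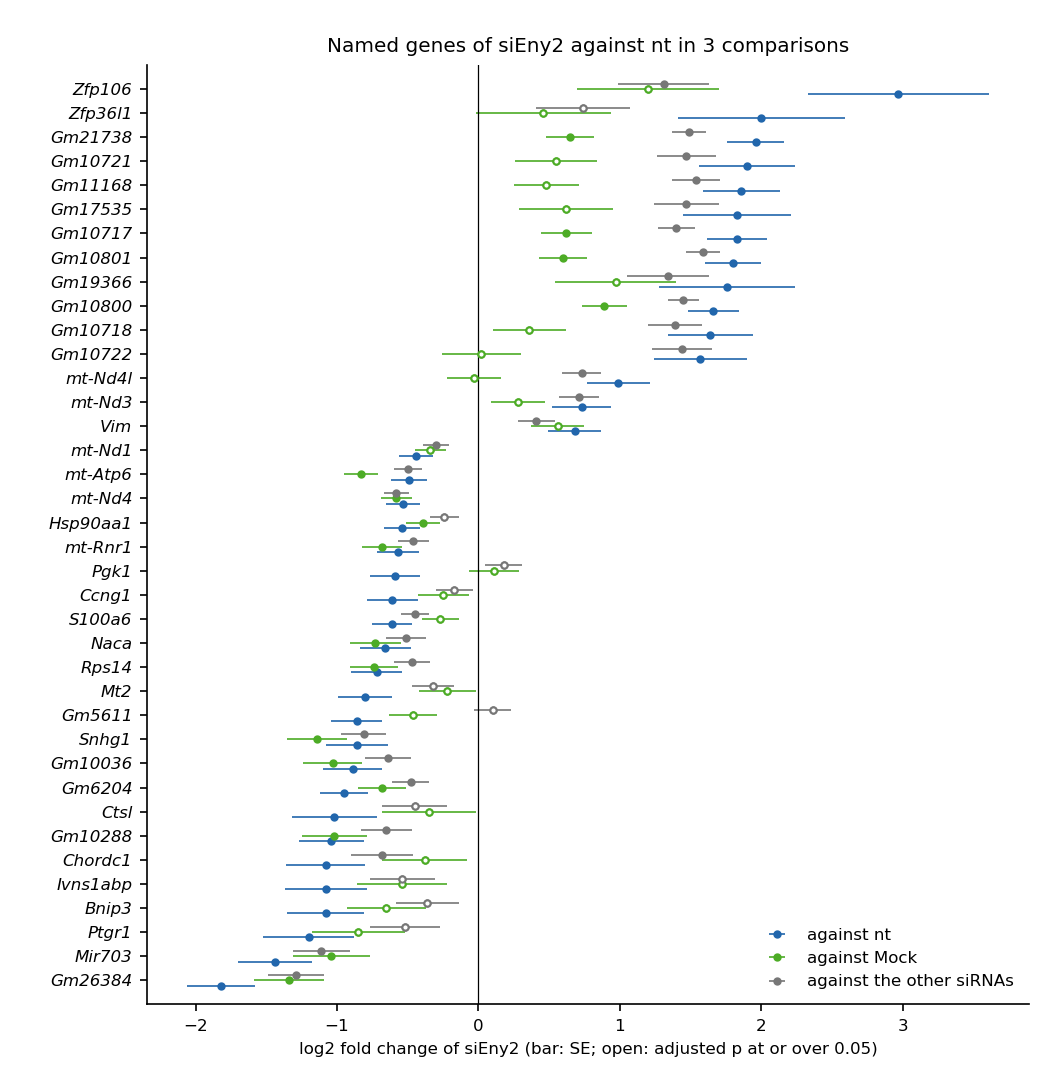
Log2 fold change of siEny2 against the nt control, Mock and the other siRNAs for genes named in the first of these comparisons, with bars of 1 SE and open points where the adjusted p was 0.05 or more. The repeat models lie to the right of 0 in all 3 comparisons, and their differences from Mock are the smallest.

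Transcripts of the mitochondrial genome took a smaller share of the siEny2 libraries. It was 21.3%, 20.6% and 18.5% of counts, against 26.3%, 24.4% and 22.8% in the nt control and 22.9% to 28.6% in Mock. The siEny2 libraries lay below every control library kept, but not outside the series. The summed level of these genes had a mean of 230000 CPM in siEny2, and the means of the other siRNA conditions ran from 178000 to 381000 CPM. Of 17 mitochondrial genes tested 4 were lower and 2 higher than in the nt control, beside 1.13% and 0.763% of all genes, with a median log2 difference of −0.24. mt-Nd4, a subunit of complex I, was at 11300, 12000 and 10700 CPM against 21200, 14500 and 14300 CPM and fell by 0.53 (SE 0.12, adjusted p = 0.00331). The ribosomal RNA mt-Rnr1 fell by 0.57 (SE 0.15, adjusted p = 0.0139), mt-Nd1 by 0.44 (adjusted p = 0.0259) and mt-Atp6 by 0.49 (adjusted p = 0.0128).

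A pair of short complex I messages moved the other way. mt-Nd4l, whose coding sequence ends where that of mt-Nd4 begins on the same messenger, was at 1490, 1720 and 936 CPM in siEny2 and at 899, 658 and 515 CPM in the nt control. The log2 difference was 0.99 (SE 0.22, adjusted p = 0.00175), and mt-Nd3 differed by 0.73 (SE 0.21, adjusted p = 0.0282). Both passed against the other siRNAs and neither against Mock, where mt-Nd4l was at −0.03 (adjusted p = 0.974). Nuclear copies of these genes (Gm10222 for mt-Nd4l, Gm28438 for mt-Nd3 and Gm10925 for mt-Atp6) were called in the same direction, and reads of the pairs cannot be told apart. Gm28439, the copy of mt-Nd4, was at 0.00 (SE 0.15, adjusted p = 0.999), and its sum with mt-Nd4 was at −0.46 (adjusted p = 0.0486).

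The cytoplasmic ribosomal proteins that were called were lower, with 1 exception. Of 76 tested, 2 fell against the nt control, Rps14 among them, and none rose, beside 1.13% of all genes lower, and the median log2 difference was −0.22. Against Mock 12 fell, beside 3.12% of all genes, with a median of −0.37. Against the other siRNAs 7 fell and 1 rose, beside 1.86% and 2.39% of all genes, with a median of −0.20. Their summed level was 40500, 45300 and 60300 CPM in siEny2 and 56800, 53800 and 67500 CPM in the nt control. The groups overlapped, while siEny2 was the lower within each pool. The 25 mitochondrial ribosomal proteins tested had a median of −0.30, with none called.

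The genes closest to ENY2 did not pass the test. Of 23 SAGA subunits with a row in the counts, 4 were tested, and none was called against the nt control, with a median log2 difference of 0.10. Taf10, a subunit shared with TFIID, was at 0.22 (SE 0.41) and Sf3b5, a splicing factor that is also part of SAGA, at 0.86 (SE 0.40, adjusted p = 0.365). The deubiquitinase Usp22 had 7 counts in the 3 siEny2 libraries and 6 in the nt control, and its activator Atxn7l3 had 13 and 5, too few to be tested. Of the genes of TREX-2 and mRNA export 9 of 24 were tested and none was called, with a median of 0.15. The export receptor Nxf1 was at 0.28 (SE 0.50), and Tpr, a nuclear basket protein, at 0.28 (SE 0.29). Mcm3ap, which encodes GANP, had 3 and 2 counts. Among the genes of H2B ubiquitination 4 were tested and none was called, with the ligase Rnf20 at 0.10 (SE 0.67). The standard errors reached 0.67 in these lists, which limits what this depth could show.

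Programmes that change in reprogramming were examined next. Of 34 mesenchymal and matrix genes tested, Vim was higher and S100a6 lower, beside 0.763% and 1.13% of all genes, and the median log2 difference was 0.40. Against Mock none was called and the median was −0.05, and against the other siRNAs it was 0.05. Col1a1 was at 0.74 (SE 0.33, adjusted p = 0.323) and Col1a2 at 0.55 (SE 0.26, adjusted p = 0.397), while Lum was at −0.60 (SE 0.34, adjusted p = 0.527). The summed level of the list overlapped between siEny2, at 8060 to 9580 CPM, and the nt control, at 8410 to 10000 CPM. Of the pluripotency genes 3 of 32 were tested and none was called, and Nanog had 5 counts in siEny2 against 1 in the nt control. Of the epithelial genes only Krtdap was tested, at −0.61 (SE 0.56, adjusted p = 0.743). Actin and contractile genes had a median of 0.05 over 25 tested, with none called.

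Growth and stress lists are given beside the 1.13% of all genes that were lower and the 0.763% that were higher than in the nt control. With lists this short, 1 or 2 calls are a small base for a share. Among 27 heat shock genes Hsp90aa1 and Chordc1 fell, and the constitutive Hsp90ab1 and Hspa8 were at 0.39 (adjusted p = 0.356) and 0.33 (adjusted p = 0.601). The medians of the heat shock list were −0.12 against the nt control, 0.11 against Mock and 0.18 against the other siRNAs. The antioxidant list had a median of −0.30 over 27 genes, with Mt2 the only call, while its median was 0.06 against Mock and −0.14 against the other siRNAs. Its summed level was 8370 to 9060 CPM in siEny2, below the nt control at 10000 to 12000 CPM and Mock at 9640 to 11700 CPM. The ferritin chain Fth1 was at −0.43 against the nt control (adjusted p = 0.264) and fell by 0.75 against Mock (adjusted p = 0.00097) and by 0.72 against the other siRNAs (adjusted p = 1.73e-05). Of 15 glycolysis and low oxygen genes Bnip3 and Pgk1 fell, and the median was 0.12. Of 12 p53 targets Ccng1 fell, and Cdkn1a was at 0.59 (SE 0.24, adjusted p = 0.238).

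Summed levels of further lists also lay below the nt control without overlap, while overlapping with Mock. The heat shock list summed to 15200 to 17100 CPM in siEny2, 18200 to 20600 CPM in the nt control and 16300 to 17600 CPM in Mock. The p53 targets were at 3130 to 3430, 3600 to 3810 and 3310 to 4290 CPM, in the same order of groups. Ribosome biogenesis was at 11300 to 12600, 12900 to 14100 and 10600 to 12900 CPM. The proteasome was at 4740 to 5370, 5450 to 5820 and 5190 to 5700 CPM. Mitochondrial ribosomal proteins, at 3800 to 4370 against 4400 to 5060 CPM, and histones, at 3250 to 3920 against 3980 to 4030 CPM, did not overlap with the nt control either. Hsp90aa1, Npm1 and H2afz held the most counts of the heat shock, ribosome biogenesis and histone lists. Median log2 differences of the members tested were −0.12 for heat shock, −0.08 for p53 targets and −0.11 for ribosome biogenesis. They were −0.08 for the proteasome, −0.30 for mitochondrial ribosomal proteins and 0.06 for histones. Apart from the antioxidant list and the mitochondrially encoded genes, the other sums overlapped with the nt control. These sums were not tested.

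Lists with no call against the nt control were S phase (14 tested, median −0.08), mitosis (33, 0.04), the ATF4 response (15, 0.06), interferon-stimulated genes (4, −0.25), ribosome biogenesis (27, −0.11), splicing factors (45, −0.01), ER chaperones (15, 0.06), sterol synthesis (11, −0.02), the chromatin core (20, −0.09), the respiratory chain (49, −0.15), the proteasome (23, −0.08), histones (6, 0.06) and tubulins (7, 0.06). The translation factors had 1 lower gene of 40, Naca, with a median of 0.06. The immediate early list had Zfp36l1 of 7, and the noncoding list had Snhg1 of 12. In all, 600 genes of 30 lists were tested, and 4 were higher and 15 lower (3.17%, against 1.89% of all genes tested).

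Markers of the labelled cell type were present. All 12 fibroblast genes of the list were counted in siEny2 or the nt control, 9 were tested and none was called, and their summed level was 1780 to 2200 CPM in siEny2 and 1660 to 2400 CPM in the nt control. Of 10 macrophage markers 7 had no count in these 6 libraries, Csf1r and Adgre1 among them, and the list summed to 0 to 44.9 CPM in siEny2 and 16.3 to 29.9 CPM in the nt control. Endothelial markers, with Cdh5 and Tie1 at 0, summed to 15.6 to 44.9 CPM and 0 to 33.3 CPM. Blood markers, with 9 of 10 at 0, summed to 0 to 15.6 CPM and 0 to 89.7 CPM. Keratinocyte markers, with Krt14 and Trp63 at 0, summed to 93.8 to 150 CPM and 83.3 to 165 CPM, and the siEny2 and nt control libraries overlapped for each of these lists. Neural markers, with Sox10 at 0, summed to 302 to 407 CPM in siEny2 and 269 to 333 CPM in the nt control. Muscle markers, with Myod1 and Myog at 0, summed to 0 to 22.1 CPM in siEny2 and 24.5 to 99.9 CPM in the nt control. These did not overlap, but they are levels of only a few counts a library, and none of the 10 genes was tested. Adipocyte markers, with Adipoq and Pparg at 0, summed to 0 to 141 CPM in siEny2 and 66.6 to 89.9 CPM in the nt control. Markers of early reprogramming and pluripotency summed to 195 to 280 CPM in siEny2 and 57.2 to 266 CPM in the nt control, with overlap.

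Small differences in both directions went with transcript length. Of the protein-coding genes tested, the shortest 482 genes, with a median length of 1167 bases, had a median log2 difference of −0.13 against the nt control, and the longest 482 genes, with a median of 7449 bases, had 0.25. Against Mock the same genes were at −0.22 and 0.26, and against the other siRNAs at −0.17 and 0.18. All coding genes tested had a median length of 3370 bases. The 13 coding genes lower than in the nt control had 2296 bases and the 4 higher ones 5783 bases, and against Mock the lower and higher ones had 1236 and 4290 bases. The siEny2 libraries also held more genes at equal depth and a smaller mitochondrial share, as given above, and the part of these measures in the length trend was not tested.

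**Figure D5:**
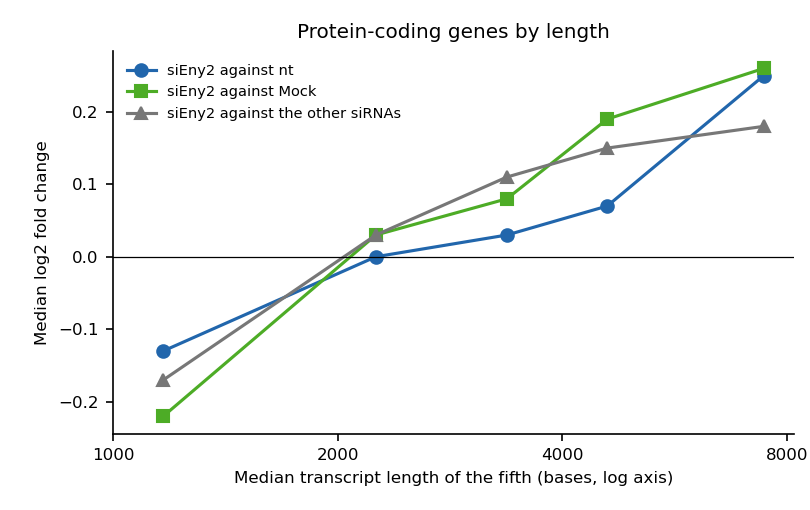
Median log2 fold change of siEny2 over 5 length groups of the 2408 protein-coding genes tested, against the median transcript length of each group in bases (log axis), for the 3 comparisons. All 3 lines run from below 0 in the shortest group to above 0 in the longest, from −0.13 to 0.25 against the nt control.

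The time course placed the called genes. Of the 3013 genes tested 321 rose and 347 fell from day 0 to day 6 in the time course, together 22.2%. Of the genes that rose, 19 were lower in siEny2 than in the nt control (5.92%, beside 1.13% of all genes) and 2 were higher (0.623%, beside 0.763%), with a median log2 difference of −0.18. Of those that fell, 7 were higher (2.02%) and 2 lower (0.576%), with a median of 0.14, and 4 of these 7 were repeat models. Genes that did neither had a median of 0.01. Against Mock, 40 of the 321 rising genes were lower (12.5%, beside 3.12% of all genes) and 8 higher (2.49%, beside 1.06%), with a median of −0.12. Of the falling genes 5 were higher, 4 of them repeat models, and 5 lower against Mock (1.44% each, beside 1.06% and 3.12% of all genes), with a median of 0.04. The lower genes of the rising group were mainly copies and members of the ribosomal and mitochondrial families described above.

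The seeds of both siRNAs were looked for in the longest transcript of each coding gene tested, as the letters that would pair with bases 2 to 8. CATTGTA, the partner of the seed of siRNA 96034, was present in 2 of 13 lower genes (Chordc1 and Pgk1), in 2 of 4 higher genes (Tcf4 and Vim) and in 23.8% of the 2408 coding genes tested. GAATAAG, the partner of the seed of siRNA 171315, was present in 3 lower genes (Ccng1, Ctsl and Ivns1abp), in none of the higher ones and in 17.2% of all. Only the transcript strand was searched.

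Some genes passed against Mock and not against the nt control, and the difference between these comparisons was not tested. Mllt3, a reader of acylated histones, was at 172, 165 and 59.0 CPM in siEny2 and at 0 to 51.6 CPM in Mock, a log2 difference of 2.00 (SE 0.60, adjusted p = 0.0296). In the nt control it was at 66.6, 165 and 114 CPM, a difference of −0.01 (adjusted p = 0.996). Psmd2, a proteasome subunit, was likewise at 1.54 against Mock (SE 0.44, adjusted p = 0.0197) and at 0.02 against the nt control. Lxn, a carboxypeptidase inhibitor, was called higher against Mock (adjusted p = 0.0309), where 3 of 5 libraries had no count. It had 22 counts in siEny2 and 3 in Mock, a ratio of 6.43 after scaling for depth, with an exact 95% interval of 1.93 to 33.6. Aplp2, an amyloid precursor-like protein, was at 1.65 against Mock (SE 0.43, adjusted p = 0.00748) and at 1.05 against the nt control (adjusted p = 0.174). The lower genes were Hspe1-ps2 at −2.20, Ly6c1 at −2.07, Srp19 at −1.64, Gm10123 at −1.61 and Lamtor4 at −1.61, with adjusted p from 0.00302 to 0.0466. None of these genes passed against the nt control, and each lost its call against Mock under some alternative.

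Among the named genes that differed from the other siRNAs were a glucose transporter and a surface protein. Slc2a3 (GLUT3) had 8, 9 and 18 counts in siEny2, a level of 131 ± 5.13 CPM (SD, n = 3), and the means of the other siRNA conditions averaged 50.4 CPM, with 2 of 32 above siEny2. Its log2 difference was 1.67 (SE 0.37, adjusted p = 0.000836). Against the nt control, at 16.7, 74.8 and 65.4 CPM, it was 1.22 (SE 0.56, adjusted p = 0.35). Ly6c1, a glycosylphosphatidylinositol-anchored protein with a near copy in Ly6c2, was at 15.6, 44.9 and 29.5 CPM in siEny2. Its mean over the 3 libraries was below the means of all 32 other siRNA conditions, which averaged 136 CPM and of which the lowest was 33.8 CPM. It was lower by 1.97 (SE 0.45, adjusted p = 0.00123), while the nt control at 16.7, 74.8 and 89.9 CPM overlapped with siEny2. Socs5, an inhibitor of cytokine signalling, was called lower (adjusted p = 0.038) with only 3 counts in the siEny2 libraries, so no size is given. Sf3b6, a component of the U2 particle of the spliceosome, was at −1.22 (SE 0.38, adjusted p = 0.0349), and Gm6905, a further Rpl11 copy, at −1.13 (SE 0.34, adjusted p = 0.0284). The calls of Socs5, Sf3b6 and Gm6905 against the other siRNAs were lost in 6, 8 and 7 of 11 alternatives, among them those leaving out each replicate, the fit without the block and DESeq2.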

How the data were processed

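Cells were profiled by CEL-Seq2, a 3′ tag method with sample barcodes and molecular identifiers. Per the study's methods, the authors aligned reads to mm10 with Bowtie2, counted them with the CEL-Seq2 pipeline on GENCODE vM13 and deposited 1 table of raw counts per gene and library. The authors also deposited log2 CPM values with the pools regressed out, used here only in 1 alternative. Strand and multimapping settings were not given in the sources used here.

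Of 129 libraries, 127 with at least 10000 counts (29656 to 235292, median 73279) were kept, and 1 Mock and 1 siMtf1 library were left out. Mock columns with the same name were numbered in their order. edgeR 4.0.16 (R 4.3.3) was run with TMM scaling, its expression filter and the quasi-likelihood test on all 42 conditions together, with the sequenced pool as a block and 83 residual degrees of freedom. Adjusted p-values are Benjamini-Hochberg over the 3013 genes tested, at a threshold of 0.05, and CPM is relative to the summed counts of the genes in the fit, scaled by TMM. Pairing by pool was taken from the labels. The deviations of same-numbered libraries correlated at a median of 0.0548 (−0.0166 to 0.347, 13 pairs), against −0.0533 for other pairs, and those of siEny2 and the nt control at 0.0884 to 0.347. Named genes were the 12 largest called differences in each direction against the nt control, and the 5 largest against Mock and the other siRNAs, with a mean of at least 50 CPM and 1 direction in every pool, and each called member of a gene list, some of which are not reported here. Members and gene lists were chosen with earlier results of these data known, and the repeat models and sequence families after seeing values. Positions and transcripts came from GENCODE vM21 (GRCm38). Copies share at least 80% of their last 500 bases at 90% identity. Alternatives were no block, RLE scaling, other filters, all libraries, each replicate left out, other controls, DESeq2 1.42.0, limma 3.58.1 on the deposited log2 values, summed families and no repeat models. The script was tested on simulated data with known changes in siEny2 against the nt control. It called 7.46% of 1.5-fold, 25.4% of 2-fold and 71.2% of 4-fold changes, and 0.142% of unchanged genes. A list with no call can therefore hold changes of such sizes. Intervals are 95% and cover counting error only.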

Additional observations from a re-analysis of the deposited data

Results flagged for a closer look

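Of 59 values checked over the 5 Mock libraries, 3 had 1 library far from the others by Dixon's ratio at the 95% level, and chance flags about 1 in 20 such groups. Gm26384 was at 1120 CPM in a Mock library of replicate 3, while the nearest library was at 378 CPM and the lowest at 206 CPM. The nt control library of the same pool was at 1160 CPM and the siEny2 library at 339 CPM, each the highest of its group. Lxn, the carboxypeptidase inhibitor, was at 51.6 CPM in a Mock library of replicate 1, from 2 counts, while the next was at 14.9 CPM and 3 libraries had no count. The total counts of the Mock library of replicate 3 were 83089, above 49873 in the next and 38925 in the lowest.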

How the results depend on the processing

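With no replicate block for the pool, 14 genes passed against the nt control, 44 against Mock and 53 against the other siRNAs, compared with 57, 126 and 128. Leaving out 1 replicate gave 20 to 30, 43 to 86 and 51 to 88. With limma on the deposited log2 values 15, 5 and 33 passed. Without a filter on low counts 35 passed against Mock and 264 against the other siRNAs, of which 226 were higher, and with every library kept 78 passed against Mock. Against the mean of the nt control and Mock 109 passed. With families summed, an alternative chosen after seeing the data, 26, 79 and 68 passed of 2495 features, and without the repeat models, also chosen afterwards, 37 passed against the nt control. The other counts stayed within 1.5 times. The ratio of Eny2 to the nt control ran from 0.716 to 1.61 with 1 replicate left out, its interval lying above 1 without replicate 1 (1.61), and was 1.08 without the block. The ratio to Mock was 0.559, with an interval below 1, without replicate 3. The cause of these changes was not tested. No named gene changed direction. The repeat models were higher against the nt control in all alternatives that held them, with 10 to 13 called. Depth was a limit: Eny2 rests on 35 and 32 counts, and Usp22 and Mcm3ap could not be tested.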
